A study of Sus scrofa with 16 samples.

Results

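The genes described here are a set of 5 that carry or answer steroid signals in the pituitary: the glucocorticoid receptor NR3C1, the mineralocorticoid receptor NR3C2, the oestrogen receptor ESR1, and the glucocorticoid-induced genes FKBP5 and TSC22D3. They were found by symbol among the 25880 genes of the count table, each matched a single gene, and all 5 passed the filter on low counts that left 14319 genes for testing. The pituitary was taken from 16 female Puławska pigs (gilts), a native Polish breed. Of these, 8 had low feed conversion (LFC, replicates 1 to 8) and 8 had high feed conversion (HFC, replicates 9 to 16), a measure of the feed an animal eats for the weight it gains. All animals had the same breed and sex, were unrelated, came from different farms and were kept under shared test station conditions, and none carried a transgene or received a treatment. The labels give an age of 3 months in both groups, although the study's methods describe animals tested until they were older. Whole glands were homogenised, so each library can mix anterior, intermediate and posterior lobe cells, in shares that may differ between libraries. Summed levels of the melanotroph and glia markers given below varied widely between libraries. Fewer cells of a type and less RNA per cell cannot be told apart.

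Pro-opiomelanocortin (POMC) of corticotroph cells is cut to adrenocorticotropic hormone, which drives the adrenal cortex to release glucocorticoids. Melanotrophs of the intermediate lobe make POMC too, and are held back mainly by dopamine. Glucocorticoids return to the pituitary and bind NR3C1, which represses POMC transcription and the release of the hormone, and which induces other genes. FKBP5, a cochaperone of the Hsp90 complex, lowers the hormone affinity of NR3C1 and so closes a short feedback loop inside the cell, whereas TSC22D3 (also known as GILZ) encodes a leucine zipper protein that carries part of the anti-inflammatory action of glucocorticoids. NR3C2 binds glucocorticoids as well as aldosterone, and ESR1 is the main mediator of oestrogen action in lactotrophs and gonadotrophs.

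Total counts ranged from 10.97 M in HFC 14 to 23.06 M in LFC 6, with 18.42 ± 3.36 M in LFC and 15.17 ± 3.24 M in HFC (SD, n = 8 each). Levels are given as CPM, counts scaled to a common library total after TMM, a correction for differences in RNA composition between libraries. POMC and GH1, hormone genes of the gland, were abundant in every library, with at least 5926 CPM of POMC and 9641 CPM of GH1. Prolactin (PRL) ranged from 276.5 to 81060 CPM. The extraction protocol in the labels nevertheless speaks of fat samples. On the first principal component of all tested genes, which held 41.77% of the variance, LFC 5 (126.01), HFC 13 (75.07) and HFC 14 (56.59) stood apart from the other 13 libraries (−53.41 to 11.29). HFC 16 stood apart in POMC with 243010 CPM, while the other 15 libraries did not exceed 77318 CPM, the level in LFC 5. The main results are therefore also given without some or all of these 4 libraries.

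The first question was whether any of these genes differed between gilts with high and low feed conversion. None did. A gene was called when it changed at least 1.3-fold and its adjusted p-value in the quasi-likelihood test of edgeR did not exceed 0.05. Of the 5 genes 0 passed, as did 0% of the 14319 genes tested. At an unadjusted p-value under 0.05, 834 genes passed (5.82%), 615 of them higher and 219 lower in HFC, and again 0 of the 5 were among them. DESeq2 called 5 genes in all and none of this set.

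NR3C1, the receptor that carries glucocorticoid feedback, lies at chr2:144822078-144956456 of Sscrofa11.1. Its level was 19.3 CPM at the lowest, 36.3 at the median and 52.1 at the highest in LFC, and 25.7, 32.4 and 39.7 CPM in HFC. The LFC animals enclosed the whole HFC range, with LFC 5 lowest and LFC 6 and LFC 8 highest of all 16. The log2 fold change of HFC against LFC by edgeR was −0.18 ± 0.16 (SE; adjusted p = 0.9999), and the mean log2 CPM differed by −0.13 (exact permutation test, two-sided p = 0.461). The SD of log2 CPM was 0.45 in LFC and 0.18 in HFC (n = 8 each), a difference in spread that was not tested. The fold change was −0.28 ± 0.13 (SE; edgeR adjusted p = 0.402) without LFC 5 and −0.11 ± 0.16 without LFC 8 or LFC 6, and −0.28 ± 0.12 (adjusted p = 0.683) in the 13 libraries without LFC 5, HFC 13 and HFC 14.

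NR3C2 lies at chr8:80303220-80669398. Its level ran from 12.3 over a median of 31.2 to 38.0 CPM in LFC, and from 16.4 over 31.0 to 38.5 CPM in HFC. The groups overlapped almost completely. The low values belonged to LFC 5 (12.3 CPM), HFC 13 (16.5 CPM) and HFC 14 (16.4 CPM), the libraries that stood apart on the first component, and every other library had between 27.5 and 38.5 CPM. The log2 fold change by edgeR was −0.05 ± 0.22 (SE; adjusted p = 0.9999), and without those 3 libraries it was 0.03 ± 0.10. NR3C2 followed the first component more closely than the other receptors did (Spearman rho −0.82 against −0.50 for both NR3C1 and ESR1, over 16 libraries).

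The balance of the corticosteroid receptors can be read within each library, since both are counted from the same RNA. The ratio of NR3C2 to NR3C1 counts, which is not corrected for transcript length and so has no meaning as a molar ratio, ranged from 0.41 in HFC 14 to 1.18 in HFC 16. Ratios over 1 were found in HFC 9, HFC 10 and HFC 16 and in no LFC library. On the log2 scale the ratio was −0.32 ± 0.22 in LFC and −0.23 ± 0.50 in HFC (SD, n = 8 each). The means differed by 0.09 (exact permutation test, two-sided p = 0.676). Without LFC 5, HFC 13 and HFC 14, the ratio was −0.27 ± 0.18 in 7 LFC and 0.01 ± 0.17 in 6 HFC libraries, a difference of 0.28 (exact permutation p = 0.0198). The ratio was examined only after the data had been seen, and the difference depends on leaving out those 3 libraries.

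**Figure D1:**
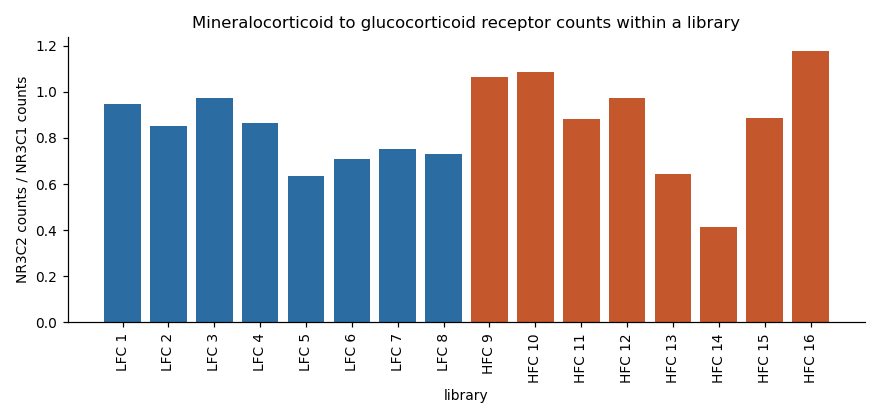
Counts of NR3C2 divided by counts of NR3C1 in each library (bars, from 0; blue LFC, orange HFC). HFC 14 has the lowest ratio (0.41) and HFC 16 the highest (1.18), and LFC 5, HFC 13 and HFC 14 have the 3 lowest bars.

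ESR1 lies at chr1:14217036-14507715. Its level was 27.4, 71.8 and 99.2 CPM (lowest, median, highest) in LFC and 13.7, 63.7 and 107 CPM in HFC. HFC held both extremes, with HFC 16 at 13.7 CPM and HFC 10 at 107 CPM, a 7.81-fold range and the widest of the set. In LFC the low libraries were LFC 5 (27.4 CPM) and LFC 2 (38.1 CPM), and the groups overlapped. The log2 fold change by edgeR was −0.16 ± 0.32 (SE; adjusted p = 0.9999), and the mean log2 CPM differed by −0.23 (exact permutation p = 0.585). That difference was 0.05 without HFC 16.

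FKBP5 lies at chr7:31441760-31585293. It had 163 CPM at the lowest, 184 at the median and 272 at the highest in LFC, and 116, 218 and 321 CPM in HFC. The HFC libraries again spread to both sides of LFC, with HFC 14 (116 CPM) and HFC 16 (122 CPM) below every LFC library and HFC 12 (321 CPM) and HFC 15 (277 CPM) above every one. The log2 fold change by edgeR was 0.12 ± 0.20 (SE; adjusted p = 0.9999; exact permutation p = 0.781 for the mean log2 CPM). The coefficient of variation was 18.1% in LFC and 34.7% in HFC (n = 8 each), and this difference was not tested.

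TSC22D3 lies at chrX:88141331-88234608. Its level was 42.1, 55.3 and 193 CPM (lowest, median, highest) in LFC and 54.2, 92.6 and 138 CPM in HFC. The highest library was LFC 5, whereas LFC 3, LFC 4, LFC 6 and LFC 8 lay below every HFC library. Of the HFC libraries, 6 of 8 exceeded the LFC mean of log2 CPM. The log2 fold change by edgeR was 0.19 ± 0.31 (SE; adjusted p = 0.9999), with a difference of 0.35 in mean log2 CPM (exact permutation p = 0.293). Leaving out LFC 5 alone raised this difference to 0.56 (exact permutation p = 0.0491), although no gene was called by edgeR in that setting either.

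**Figure D2:**
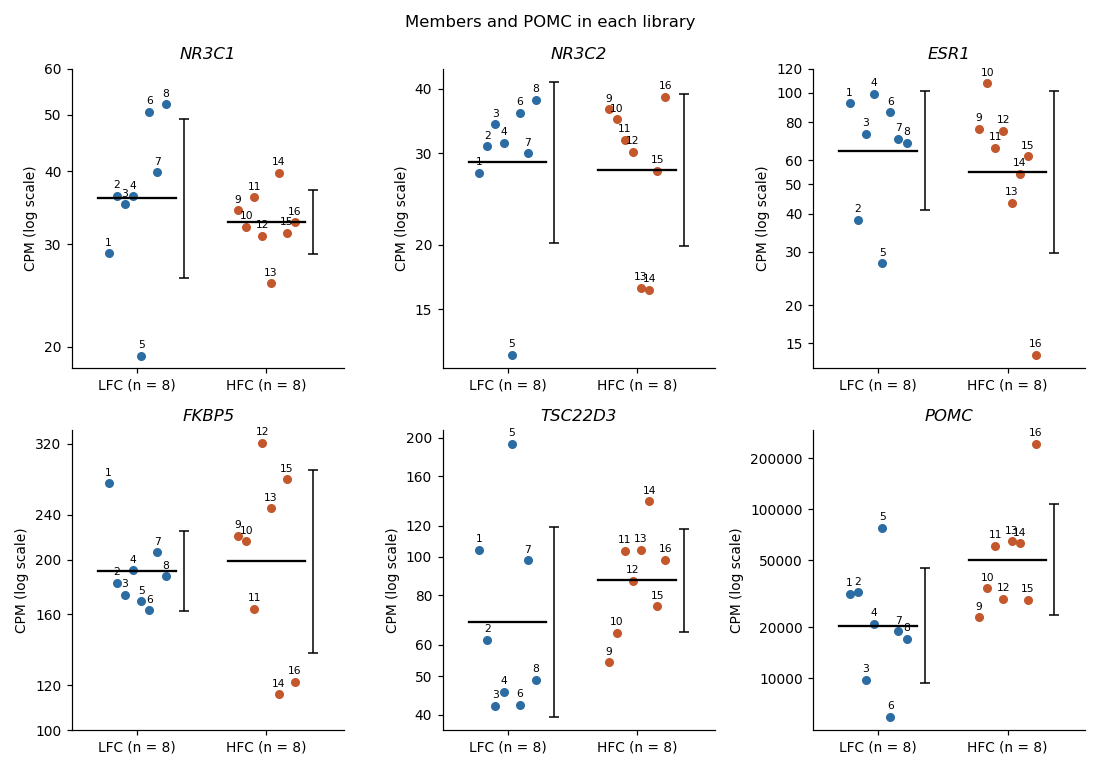
CPM of the 5 genes and of POMC in each library, on log axes. Points are single libraries with their replicate numbers (blue LFC, orange HFC), horizontal lines are means of log2 CPM and bars are 1 SD of log2 CPM (n = 8). The groups overlap for every gene, LFC 5 is lowest for NR3C1 and NR3C2 and highest for TSC22D3, and HFC 16 is lowest for ESR1 and highest for POMC.

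Between animals the coefficient of variation over all 16 libraries was 23.2% for NR3C1, 26.9% for NR3C2, 27.7% for FKBP5, 39.0% for ESR1 and 47.4% for TSC22D3. The median over all tested genes was 29.7%, so ESR1 and TSC22D3 varied more, and the other 3 less, than the median gene. Counts were ample for this comparison, since the lowest count of any of these genes in any library was 129 (NR3C2).

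The second question was how these genes related to POMC, the hormone precursor under glucocorticoid feedback. POMC (chr3:113661004-113670624) ranged from 5926 to 77318 CPM in LFC and from 22878 to 243010 CPM in HFC. HFC exceeded LFC by 1.36 ± 0.55 on the log2 scale (SE; edgeR adjusted p = 0.754; exact permutation p = 0.0329 for a difference of 1.29 in mean log2 CPM). A slope on POMC was therefore fitted with a group term for all 14318 other genes, so that it describes how a gene moved with POMC among animals of the same group.

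TSC22D3 increased and ESR1 decreased with POMC. With the adjusted p-value of at most 0.05 as the only criterion, 4.13% of all genes were called, 3.02% with a positive and 1.11% with a negative slope. Of the 5 genes, 1 had a called positive slope and 1 a called negative slope. TSC22D3 had a slope of 0.46 ± 0.10 log2 units per log2 unit of POMC (SE; edgeR adjusted p = 0.0257), which is 37.4% more TSC22D3 for each doubling of POMC. ESR1 had a slope of −0.54 ± 0.13 (SE; edgeR adjusted p = 0.0321), or −31.2% for each doubling. The slopes of NR3C1 (−0.15 ± 0.07; adjusted p = 0.219), NR3C2 (−0.13 ± 0.10; adjusted p = 0.412) and FKBP5 (−0.14 ± 0.10; adjusted p = 0.36) did not pass. Leaving out single libraries moved the slope of NR3C1 between −0.24 (without HFC 16) and −0.07 (without LFC 5), and that of FKBP5 between −0.23 (without LFC 6) and −0.05 (without HFC 16). The glucocorticoid-induced genes thus differed in the sign of their estimate, with only that of TSC22D3 past the threshold, and the difference between their slopes was not tested.

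The correlation of TSC22D3 with POMC was positive in every subset of the animals examined, but did not pass 0.05 in each. Over the 16 libraries Pearson's r was 0.73 (permutation p = 0.00107) and Spearman's rho 0.82 (permutation p = 0.00032). It was computed as 1 of 5 such relations. Without the 2 libraries farthest from the median of POMC (LFC 6 and HFC 16) r was 0.82, and without LFC 5, HFC 13, HFC 14 and HFC 16 it was 0.72 (permutation p = 0.00538, n = 12). Within LFC r was 0.82 (exact permutation p = 0.00967, n = 8) or, without LFC 5, 0.64 (exact permutation p = 0.106, n = 7). Within HFC it was 0.60 (exact permutation p = 0.115, n = 8) or, without HFC 16, 0.87 (exact permutation p = 0.0145, n = 7). The edgeR call was less steady. It was lost without LFC 3, LFC 5 or HFC 9, with the adjusted p-value reaching 0.182 and the slope 0.32 without LFC 5, and in the 13 libraries without LFC 5, HFC 13 and HFC 14 (slope 0.29; adjusted p = 0.168). In the 12 libraries left without HFC 16 as well, the slope was 0.45 ± 0.14 (SE), with an adjusted p = 0.690 in a fit by edgeR that called 0 genes.

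The relation of ESR1 with POMC leaned on the libraries that stood apart. Over all 16, r was −0.75 (permutation p = 0.00103) and rho −0.60 (permutation p = 0.0167). Without the 2 libraries farthest from the median of POMC r was −0.55 (permutation p = 0.0398), and without LFC 5, HFC 13, HFC 14 and HFC 16 it was −0.20 (permutation p = 0.523, n = 12), with a slope of −0.11 ± 0.15 (SE; edgeR adjusted p = 0.963). Within HFC r was −0.91 (exact permutation p = 0.00848, n = 8) and, without HFC 16, −0.62 (exact permutation p = 0.141, n = 7). Within LFC it was −0.68 (exact permutation p = 0.0702, n = 8) and, without LFC 5, −0.33 (exact permutation p = 0.463, n = 7). The edgeR call was lost when LFC 5, HFC 9, HFC 10, HFC 12 or HFC 16 was left out.

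For the corticosteroid receptors, r with POMC was −0.55 for NR3C1 (permutation p = 0.0304; rho −0.56, permutation p = 0.0253) and −0.39 for NR3C2 (permutation p = 0.138; rho −0.37, permutation p = 0.162). These values include the difference in POMC between the groups. With the group means subtracted, NR3C1 had r = −0.53 (permutation p = 0.0374) but rho = −0.30 (permutation p = 0.26). NR3C2 then had r = −0.43 (permutation p = 0.0936) and rho = −0.39 (permutation p = 0.138). Without LFC 6 and HFC 16, r was −0.55 for NR3C1 (permutation p = 0.042) and −0.75 for NR3C2 (permutation p = 0.00105). The value for NR3C1 no longer passed 0.05 when LFC 5, LFC 6 or HFC 13 alone was left out (permutation p up to 0.121). HFC 16, with the most POMC of all, had 38.5 CPM of NR3C2, the highest value of the 16, and without it the slope of NR3C2 was −0.38 (edgeR adjusted p = 0.0199), in a fit that called 28.7% of all genes. In LFC alone r was −0.81 for NR3C1 (exact permutation p = 0.0192, n = 8), against 0.03 in HFC (exact permutation p = 0.930, n = 8). For NR3C2 it was −0.80 in LFC (exact permutation p = 0.00652, n = 8) and −0.03 in HFC (exact permutation p = 0.943, n = 8). These values shifted with single libraries. Without LFC 5 the LFC values were −0.59 for NR3C1 (exact permutation p = 0.16, n = 7) and −0.68 for NR3C2 (exact permutation p = 0.0879, n = 7), and without HFC 16 the HFC value of NR3C2 was −0.73 (exact permutation p = 0.074, n = 7). The difference in slope between groups was tested across all genes and passed for 0 of 14318, with edgeR adjusted p-values of 0.271 for NR3C1 and 0.364 for NR3C2 (unadjusted p = 0.0184 and 0.0814).

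No relation of FKBP5 with POMC was detected over the 16 libraries (r = −0.29, permutation p = 0.284; rho = −0.18, permutation p = 0.517; r = −0.19 without LFC 6 and HFC 16). Within HFC r was −0.72 (exact permutation p = 0.0351, n = 8), and within LFC 0.27 (exact permutation p = 0.494, n = 8). The difference in slope between the groups had an unadjusted p = 0.0171 and an edgeR adjusted p = 0.266. Without HFC 16 the HFC value was −0.61 (exact permutation p = 0.15, n = 7), and without LFC 5 the LFC value was 0.68 (exact permutation p = 0.0937, n = 7).

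**Figure D3:**
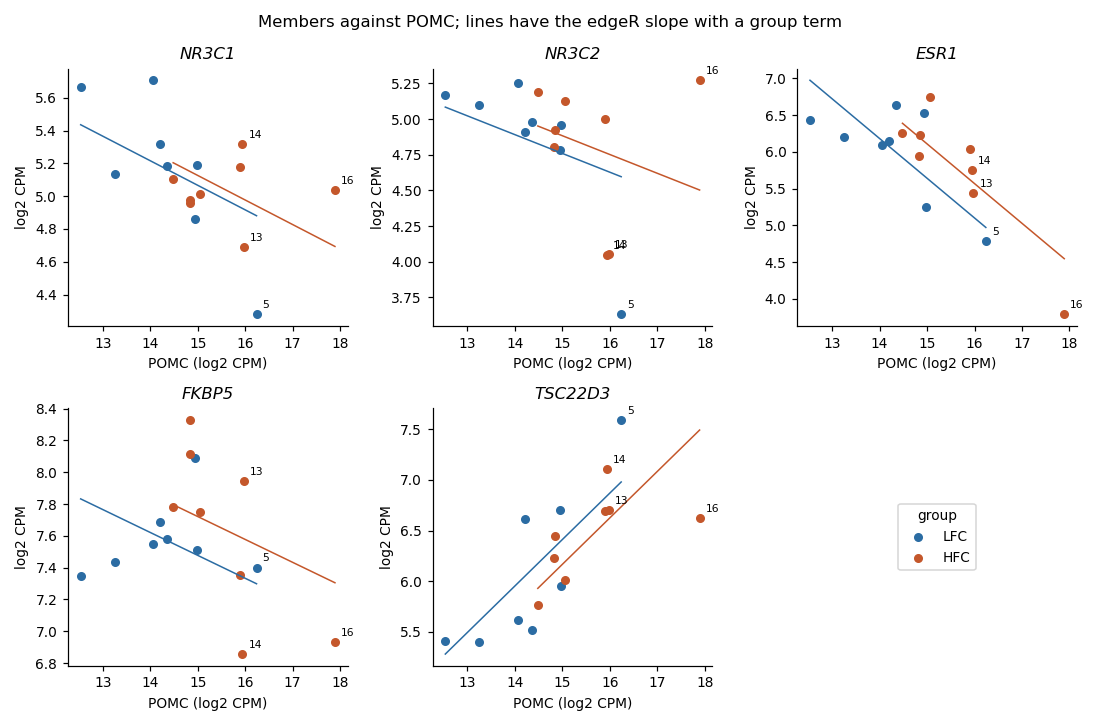
Log2 CPM of each of the 5 genes (vertical) against log2 CPM of POMC (horizontal) in 16 libraries (blue LFC, orange HFC). Lines run through the group means with the slope of the edgeR fit, and the 4 libraries that stood apart carry their replicate numbers. TSC22D3 has a slope of 0.46 and ESR1 of −0.54, and HFC 16 lies far to the right in every panel.

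The wider steroid pathway was examined through 8 gene lists. No gene of any list differed between HFC and LFC by the edgeR call (0% of all genes), and 5 of the 8 lists held no gene with a called slope on POMC (4.13% of all genes). The median slope of all genes was 0.01, and 53.1% of slopes were above 0.

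Among 6 steroid receptors, ESR1 was the only one with a called slope on POMC, and 5 of the 6 slopes were negative (median −0.15). The oestrogen receptor ESR2 and the progesterone receptor PGR had at most 1.39 CPM on average in either group, and gave slopes of −0.19 ± 0.23 and 0.06 ± 0.18 (SE). None of the 10 receptor chaperones and cochaperones was called in either comparison. HSP90AA1 and HSP90AB1, which encode the Hsp90 proteins that hold receptors ready for hormone, had log2 fold changes of −0.16 ± 0.12 and −0.14 ± 0.10 (SE), and slopes of −0.03 ± 0.06 and −0.05 ± 0.05.

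None of the 11 receptor coregulators was called, although 10 of their 11 slopes were negative (median −0.15). The coactivator NCOA1 came nearest, with a slope of −0.18 ± 0.05 (SE; edgeR adjusted p = 0.0686). The slope of the deacetylase HDAC2 (−0.03 ± 0.05) did not pass. None of 7 measured genes of steroid metabolism was called. HSD11B1, which regenerates active cortisol inside cells, had 177 ± 27.2 CPM in LFC against 189 ± 35.3 CPM in HFC (SD, n = 8 each). H6PD, which supplies HSD11B1 with its cofactor, had a slope of 0.14 ± 0.05 (SE; edgeR adjusted p = 0.138), and HSD17B4, an enzyme of peroxisomal oxidation that also inactivates oestradiol, one of −0.13 ± 0.08. CYP19A1 is not analysed here.

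Among 15 glucocorticoid-induced genes, 2 increased with POMC and none decreased, where 3.02% of all genes increased and 1.11% decreased. Beside TSC22D3 this was ANXA1, annexin A1, which restrains inflammation and the release of pituitary hormones, with a slope of 0.31 ± 0.06 (SE; edgeR adjusted p = 0.0150). The other 13 gave no call, and the median slope of the list was 0.01, the same as over all genes at this precision. PER1, a clock gene with a glucocorticoid response element, had a slope of 0.01 ± 0.12 and 200.9 ± 59.9 CPM in LFC against 178 ± 71.9 CPM in HFC (SD, n = 8 each).

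The 14 other genes of that list also allowed a look at how FKBP5 and TSC22D3 tracked their class, as a description over 16 libraries. Spearman's rho with FKBP5 was over 0.5 for 3 of the 14, CEBPD (0.62), NFKBIA (0.54) and DDIT4 (0.51), against 2.93% of all genes. For TSC22D3 it was over 0.5 for 3 of 14, ANXA1 (0.91), CEBPB (0.73) and DDIT4 (0.56), against 17.7% of all genes. It was under −0.5 for 1 of 14, ZBTB16 (−0.52), against 19.3% of all genes. DDIT4, a stress-induced inhibitor of mTOR signalling, was the gene that both shared. CEBPB and CEBPD encode transcription factors of the C/EBP family, and NFKBIA an inhibitor of NF-κB. These genes, apart from ANXA1, were singled out after their values were seen. Of all 15 genes, rho with NR3C1 was over 0.5 for 0 and under −0.5 for 4 (7.96% and 6.22% of all genes). For NR3C2 these counts were 2 and 6 (24.1% and 21.0% of all genes).

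Of the oestrogen-induced genes, 3 of 5 passed the filter and none was called (GREB1 and GAL did not pass it). PRL, the prolactin gene, differed by −1.86 ± 0.71 on the log2 scale between HFC and LFC (SE; edgeR adjusted p = 0.719) and a slope on POMC of −0.39 ± 0.39 (adjusted p = 0.542), and XBP1, a factor of the secretory stress response, −0.05 ± 0.12 and −0.04 ± 0.06. None of 4 measured mineralocorticoid-responsive genes was called. NEDD4L, which marks sodium channels for removal, had a slope of −0.03 ± 0.08. FXYD4 is not analysed here.

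Among the corticotroph feedback genes TBX19, the factor that drives POMC transcription, increased with POMC (slope 0.31 ± 0.08, SE; edgeR adjusted p = 0.0434), and none of the other 5 tested for it did. Without LFC 5, HFC 13 and HFC 14, both ANXA1 (0.31 ± 0.06; adjusted p = 0.016) and TBX19 (0.36 ± 0.07; adjusted p = 0.0243) were called by edgeR. Without HFC 16 alone ANXA1 was called (0.37 ± 0.07; adjusted p = 0.00958) and TBX19 was not (0.12 ± 0.09; adjusted p = 0.262), in a fit that called 28.7% of all genes. AVPR1B, the vasopressin receptor of corticotrophs, had 209 ± 138 CPM in LFC against 174 ± 148 CPM in HFC (SD, n = 8 each) and a slope of −0.05 ± 0.46. PITX1 is not analysed here.

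**Figure D4:**
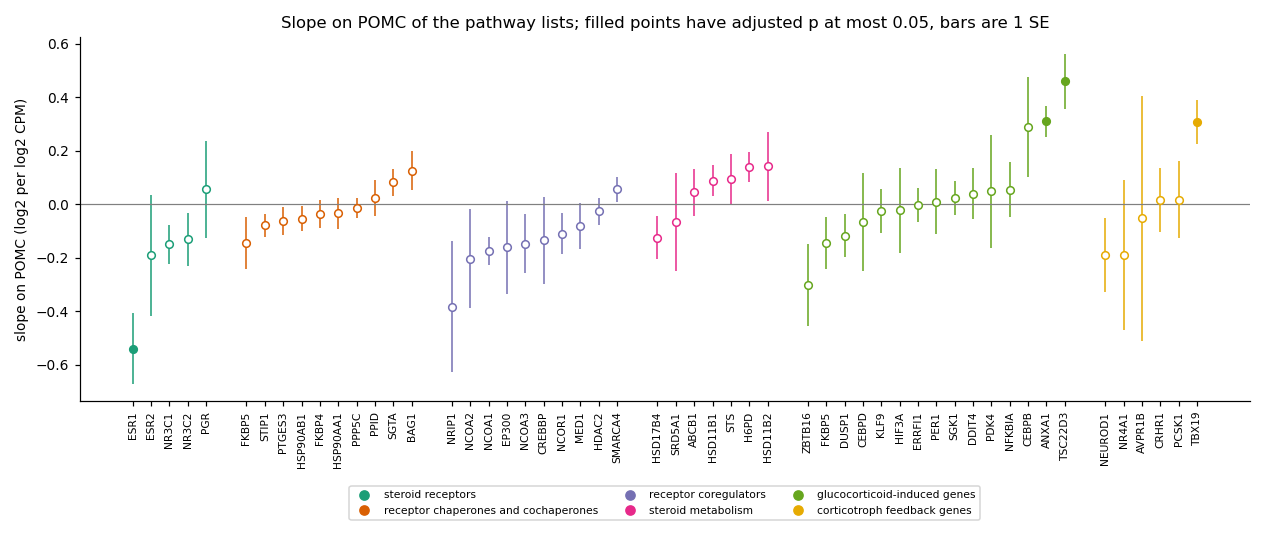
Slope on POMC in log2 units per log2 unit (vertical) for genes of 6 of the lists, coloured by list. Filled points passed an edgeR adjusted p-value of 0.05, open points did not, and bars are 1 SE. ESR1 lies lowest (−0.54), TSC22D3 highest (0.46), and ANXA1 and TBX19 are the other filled points.

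Genes that mark other cell types of the gland also moved with POMC, and with TSC22D3. Of 14 marker lists, 9 held no gene with a called slope. In the microglia and macrophage list 5 of 7 genes increased with POMC (CSF1R, AIF1, C1QA, C1QB and C1QC; 3.02% of all genes), with slopes between 0.42 and 0.62. The summed level of the list was 118 to 705 CPM in LFC and 204 to 471 CPM in HFC, highest in LFC 5. The mean log2 CPM of the listed genes had a Spearman correlation of 0.82 with TSC22D3 and 0.80 with POMC. In the pituicyte and glia list 3 of 5 genes increased with POMC (RAX, COL25A1 and CRYM). The sum, 207 to 1331 CPM in LFC and 87.9 to 3771 CPM in HFC, was highest in HFC 16. The mean log2 CPM of these 5 genes had a rho of 0.75 with TSC22D3. In the stem and folliculostellate list 2 genes were tested, and their slopes had opposite signs. SOX9 had a slope of 0.44 (edgeR adjusted p = 0.0472) and ALDH1A1 one of −0.29 ± 0.12 (SE; edgeR adjusted p = 0.158). Without LFC 5, HFC 13 and HFC 14, none of the 5 macrophage genes was called (slopes 0.23 to 0.37), nor was CRYM (edgeR adjusted p = 0.0847), RAX and COL25A1 did not pass the low count filter, and SOX9 was called (adjusted p = 0.0438). Without HFC 16 alone, the 5 macrophage and 3 glial genes were called and SOX9 was not (adjusted p = 0.107). That fit called 28.7% of all genes. No gene of any marker list was at 0 in every library, and the part of these cells in the relation of TSC22D3 with POMC was not tested.

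ESR1 is itself 1 of the 3 lactotroph markers used here. Its rho with the mean log2 CPM of that list, ESR1 included, was 0.22. The summed CPM of the list, nearly all PRL, was 6787 to 81260 CPM in LFC and 780 to 32000 CPM in HFC. That of the melanotroph markers was 61.4 to 184 CPM in LFC and 58.2 to 3430 CPM in HFC. HFC 16, lowest in ESR1, also had the lowest sums of lactotroph (780 CPM), gonadotroph (550 CPM), thyrotroph (5.06 CPM) and stem cell markers (143 CPM) and the highest of melanotroph markers (3430 CPM). LFC 5, second lowest in ESR1, did not share this: its lactotroph sum was 45490 CPM and its melanotroph sum 122 CPM. The stem cell sum held 2 genes, ALDH1A1 (480 ± 211 CPM in HFC, SD, n = 8) and SOX9 (13.8 ± 9.29 CPM). The part of the cell mixture in the relation of ESR1 with POMC was not tested.

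The 5 genes also differed in how they moved with each other. Of 10 pairs, the strongest was NR3C2 with TSC22D3 (r = −0.76, permutation p = 2e-04; rho = −0.68, permutation p = 0.00483). Without LFC 5 and HFC 14, the libraries farthest from the median of NR3C2, r was −0.50 (permutation p = 0.0449), and without LFC 5, HFC 13 and HFC 14 it was −0.45 (permutation p = 0.123, n = 13). NR3C1 and NR3C2 varied together over all 16 libraries (r = 0.64, permutation p = 0.00921; rho = 0.44, permutation p = 0.0884). Without LFC 5 and LFC 8, the libraries farthest from the median of NR3C1, r was 0.30 (permutation p = 0.289). Leaving out the extremes of a gene narrows its range and can lower r, so this cannot show what the relation rests on. Without LFC 5, HFC 13 and HFC 14, r was 0.50 (permutation p = 0.0807, n = 13). For NR3C1 with TSC22D3, r was −0.64 (permutation p = 0.00666; rho = −0.51, permutation p = 0.0445) and, without LFC 5 and LFC 8, −0.37 (permutation p = 0.202). Without LFC 5, HFC 13 and HFC 14, r for this pair was −0.53 (permutation p = 0.0612, n = 13). With the group means subtracted, r was −0.62 (permutation p = 0.0119) and rho −0.31 (permutation p = 0.245).

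ESR1 and TSC22D3, the genes with called slopes of opposite sign, had r = −0.50 (permutation p = 0.0494; rho = −0.52, permutation p = 0.0428) and −0.35 without LFC 5 and HFC 16 (permutation p = 0.225). With the group means subtracted, r was −0.48 (permutation p = 0.0638). FKBP5 and TSC22D3, both induced through NR3C1, had no detectable relation (r = −0.11, permutation p = 0.684; rho = −0.04, permutation p = 0.890; r = 0.03 without HFC 12 and HFC 14). FKBP5 went against NR3C2 once LFC 5, HFC 13 and HFC 14 were left out (r = −0.68, permutation p = 0.0112, n = 13), although over all 16 libraries r was 0.07 (permutation p = 0.80; rho = −0.21, permutation p = 0.423). These p-values were not adjusted for the number of pairs.

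**Figure D5:**
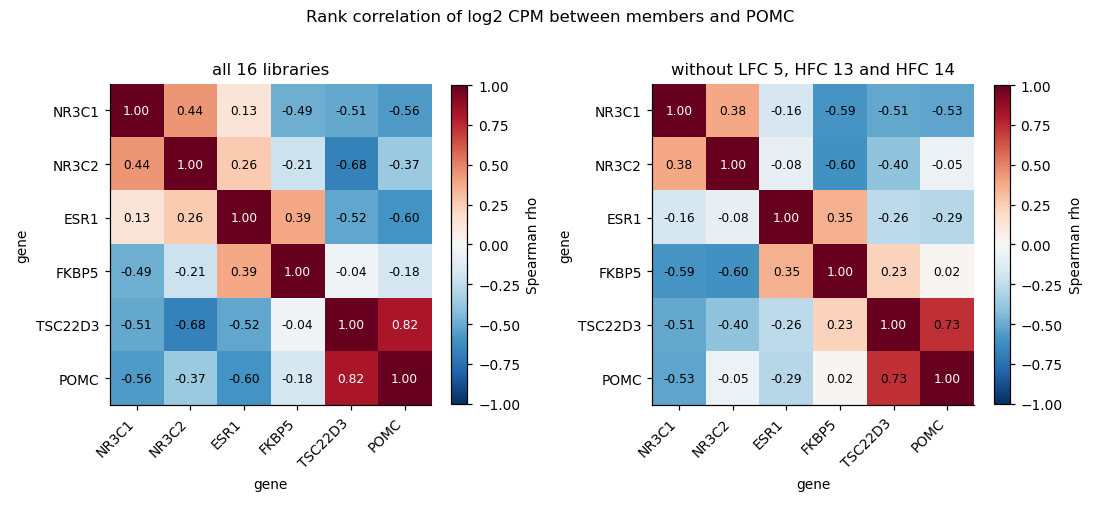
Spearman rank correlation of log2 CPM for each pair of the 5 genes and POMC, over all 16 libraries (left) and over the 13 libraries without LFC 5, HFC 13 and HFC 14 (right), coloured from −1 to 1. TSC22D3 with POMC is 0.82 on the left and 0.73 on the right, whereas NR3C2 with FKBP5 goes from −0.21 to −0.60.

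Each gene had its own closest neighbours among the 14318 other tested genes, ranked by Spearman's rho over 16 libraries. For NR3C2 these were USP8 (0.96), NBEA (0.96), TRAPPC8 (0.96), NIPA1 (0.94) and EIF4G3 (0.94), and 592 genes in all had a rho over 0.8 and 541 one under −0.8. TSC22D3 was nearest to NDRG2 (0.96), PDCD6 (0.95), CD14 (0.95), PLCD1 (0.94) and TCAP (0.93), with 240 genes over 0.8 and 288 under −0.8. CD14 encodes a monocyte and macrophage receptor for bacterial lipopolysaccharide, and NDRG2 is abundant in astrocytes. NDRG2, CD14 and PLCD1 also increased with POMC (edgeR adjusted p = 0.0322, 0.0479 and 0.0368), but none of them was called without LFC 5, HFC 13 and HFC 14 (adjusted p = 0.0689, 0.362 and 0.137).

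The other 3 genes had fewer neighbours. ESR1 was closest to EYA1 (0.94), RPS6KA6 (0.93), ISLR2 (0.92), EPB41L1 (0.92) and GALNT17 (0.87), with 46 genes over 0.8. EYA1, a transcriptional coactivator with a role in pituitary development, had a slope on POMC of −0.32 ± 0.09 (SE; edgeR adjusted p = 0.0542), and EPB41L1 decreased with POMC (−0.30 ± 0.08; adjusted p = 0.0419), a call lost without LFC 5, HFC 13 and HFC 14 (−0.24 ± 0.08; adjusted p = 0.145). FKBP5 was closest to SYT2 (0.88), PHLDB3 (0.88), PTGFR (0.87), RFWD2 (0.85) and PTGER3 (0.84), the list holding both PTGFR and PTGER3, receptors for prostaglandins, and 8 genes exceeded 0.8. NR3C1 was closest to TDRD12 (0.82), ARPP21 (0.82), PDE4DIP (0.82), STRN3 (0.78) and AARS1 (0.78), and 5 genes exceeded 0.8. Over the 13 libraries without LFC 5, HFC 13 and HFC 14, these 25 values were 0.66 to 0.93. Those 13 libraries were among the ones used to pick the neighbours, so these values are not a separate check.

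The receptors and FKBP5 are long genes. NR3C2 spans 366 kb, longer than 98.3% of the 11433 genes with a span, ESR1 291 kb (97.1%), FKBP5 144 kb (89.5%), NR3C1 134 kb (88.4%) and TSC22D3 93.3 kb (81.4%), against a median of 29.2 kb. NR3C2 was low, and TSC22D3 high, in the libraries that stood apart on the first component (rho −0.82 and 0.84 with it), whereas FKBP5 had no relation with it (rho −0.01).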

How the data were processed

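RNA of whole pituitaries from 8 LFC and 8 HFC gilts was sequenced with a kit that keeps no strand, so overlapping genes are uncertain. Per the methods and the labels, the authors used FastQC, Flexbar, STAR or another aligner (the sources differ) and RSEM on Sscrofa11.1, and deposited raw counts per gene as whole numbers. A second deposited table gave gene symbols and positions. Its columns of group means, folds, log2 folds and p-values of the authors' comparison were not used. Symbols came from that table (10091 genes), a gene name table (5454) or, POMC included, an overlap of at least 50% with 1 RefSeq gene (379), and 9956 genes stayed unnamed.

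Counts were fitted with edgeR 4.0.16 (R 4.3.3; glmQLFit and glmQLFTest, TMM, filterByExpr by group) over all 16 libraries, once with group and once with group and log2 CPM of POMC. P-values were Benjamini-Hochberg adjusted over all tested genes. The fit with the slope had no fold minimum. Log2 CPM used a prior count of 2. Single genes were compared by exact permutation over 12870 assignments, and correlations by 100000 resamples or, within a group, exactly (scipy 1.17.1, numpy 2.4.6). All tests were two-sided, and the fits were tested on simulated data. Each library is a separate gilt, at 10.97 to 23.06 M counts. Marker and pathway lists and the 5 genes were chosen with earlier results of these data known. Named from the lists were genes with an unadjusted p-value under 0.05 in either fit and the 2 most abundant of each list, and the 5 nearest neighbours of each gene. Other list genes were named after their values were seen, and some genes of the lists are not reported here. Alternatives were DESeq2 1.42.0, voom of limma 3.58.1, other scalings, filters and prior counts (0.5), no group term and left-out libraries. The set of 12 libraries, the slope by group test, the receptor ratio, correlations within groups and the subsets for other named genes were added after seeing the data.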

Additional observations from a re-analysis of the deposited data

Results flagged for a closer look

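In 3 cases a single library lay apart from its group, with a gap to its nearest neighbour that, divided by the group's range, exceeded Dixon's critical value for 8 samples. NR3C2 in LFC replicate 5 was at 3.63 log2 CPM, where the other LFC libraries ran from 4.79 to 5.25 (gap 0.712 of the range). ESR1 in HFC replicate 16 was at 3.79 log2 CPM, where the others ran from 5.44 to 6.75 (0.559). FKBP5 in LFC replicate 1 was at 8.09 log2 CPM, above the others at 7.35 to 7.69 (0.545). Chance flags about 1 in 20 groups, or 0.6 of the 12 groups checked.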

How the results depend on the processing

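Of 526 recomputed values, 467 were rated the same as the main result. For an estimate this means the same direction and side of the threshold, and for a count of called genes only a similar size. The count of genes with a slope on POMC (592) was the least steady: 151 under total count scaling, 1107 without a group term, 230 in the 14 libraries behind the deposited comparison (without LFC 5 and HFC 14), 0 in the 12 libraries without LFC 5, HFC 13, HFC 14 and HFC 16 (edgeR), and between 81 (without HFC 9) and 4120 (without HFC 16) when 1 library was left out. The count between groups (0) was 5 with DESeq2 and 834 at an unadjusted p-value, and 0 without any 1 library. The cause of these shifts was not tested. The ESR1 slope lost its call under total count scaling (−0.61), in 14 (−0.49), 13 (−0.47) and 12 libraries (−0.11), and ranged from −0.65 to −0.37 with 1 library left out. The TSC22D3 slope lost it under total count scaling (0.39), in 14 (0.30), 13 (0.29) and 12 libraries (0.45), and ranged from 0.32 to 0.60. The NR3C2 slope was 0.0010 in 13 libraries and −0.384 to −0.0311 with 1 left out. The FKBP5 slope was 0.0851 in 12 libraries. Of the 15 other genes named with a called slope, 3 were called in 13 libraries and 0 in 12, where edgeR called no gene. Without HFC 16, 13 were called, in a fit that called 28.7% of all genes. All 13 that passed the low count filter in 13 and in 12 libraries had the same sign as over all 16. The NR3C1 fold change was −0.32 in 14 libraries (adjusted p = 0.589). The log2 fold change turned for NR3C2 in 13 libraries (0.0282; −0.161 to 0.0406 with 1 left out, above 0 without HFC 13 or HFC 14) and for ESR1 in 12 (0.0308). Differences in mean log2 CPM with 1 library left out were −0.22 to 0.0619 for NR3C2, −0.407 to 0.0519 for ESR1, −0.0414 to 0.169 for FKBP5 and 0.25 to 0.56 for TSC22D3. Correlations with POMC were −0.66 to −0.42 for NR3C1 and −0.71 to −0.30 for NR3C2. Among pairs, NR3C1 with FKBP5 turned to 0.16 under total count scaling, and NR3C2 with ESR1 (−0.31), NR3C2 with FKBP5 (−0.68) and FKBP5 with TSC22D3 (0.19) turned in 13 libraries. No paired analysis was possible because the groups share no replicate numbers.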
